A study of Mus musculus with 5 samples.

Results

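The 36 genes described here encode the lysosome, the proton pump that acidifies it and the autophagy machinery that delivers cargo to it. They were chosen by symbol and read from the rows of the count table whose mouse Ensembl identifier carries that symbol in the GRCm38 annotation, 36 of 54100 genes; the rule itself uses no measured value, but the list was drawn up with earlier results of these data known. Transcripts were measured in B16F10, a pigmented mouse melanoma line, in 5 libraries of poly(A) RNA made with a kit that keeps strand. The groups were conventional 3D culture and dynamic suspension culture, both of wild-type genotype by their labels, shControl, also labelled wild type, and cells with the genotype labels knockdown or overexpression of HIF-1α, the subunit that makes the hypoxia factor sensitive to oxygen. The labels give no treatment and the same growth protocol for all 5, serum-free medium on a shaker (60 to 80 rpm) for 7 to 10 days. The construct, its promoter and the number of clones behind shControl, knockdown and overexpression were not stated in the labels. The title names HIF-1α, stem-like tumour cells and the p53 pathway as the subject. Each library pooled 3 repeats, so each group is 1 library, no difference has a replicate check, and no p-value is given.

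Lysosomes digest proteins, glycans and lipids with acid hydrolases that work in a lumen acidified by the vacuolar proton pump, the V-ATPase. In autophagy, cytoplasmic cargo is enclosed in a membrane that carries lipid-linked LC3 and GABARAP proteins and is then fused with the lysosome. TFEB and TFE3, relatives of the melanocyte factor MITF, switch on many of these genes through a palindromic DNA element called CLEAR. In pigment cells the same family and several of the same proteins also serve the melanosome, a lysosome-related organelle.

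Values below are CPM, counts relative to library size after scaling by TMM factors, and a log2 ratio compares 2 libraries with a prior count of 2. A gene is called beyond 2-fold where the log2 ratio is 1 or more in either direction, the 2 libraries average at least 1 CPM, and the 95% counting interval of the ratio excludes no change. The columns of conventional 3D culture, dynamic suspension and shControl summed to between 59493240 and 61267892, and in these 26.8% to 29.2% of values from 1 to 40 are multiples of 4. The columns labelled knockdown and overexpression summed to 14803426 and 15393189, with 16.1% and 17.3% multiples of 4. The first 3 hold estimated counts by this pattern and the other 2 plain counts, so where these 2 are set against shControl, a difference in group cannot be told apart from one in the kind of column. Comparisons among the first 3, and between the last 2, are within 1 kind. Counting intervals and error bars use the values as deposited, so they are too narrow where an estimated count exceeds the reads behind it. Hif1a, the targeted gene, was 61.3 CPM in shControl, 95.1 in the library labelled knockdown, against its label (the column listed for it is headed B16F10, the bare name of the line), 384 in the library labelled overexpression, 390.5 in dynamic suspension and 542 in conventional 3D culture. Directions below are those of the libraries as labelled, and whether the knockdown label is right was not tested. All 7 melanocyte markers (Mitf, Tyr, Tyrp1, Dct, Pmel, Mlana, Sox10) were above 1 CPM in every library, with a summed level of 14699.5 to 30823 CPM. Macrophages are rich in lysosomes. Of 10 immune markers, Itgam, C1qa and Cd3e were at 0 in all 5 libraries, Ptprc, Adgre1, C1qb and Csf1r were at 0 to 0.357 CPM and highest in conventional 3D culture, and Lyz2 and Cd68 reached 2.80 and 13.2 CPM. In bulk RNA, fewer cells of a type and less RNA per cell cannot be told apart.

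All 36 genes were measured, at 7.28 CPM or more in every library, and 35 of them at 10 CPM or more. Between its highest and lowest library a gene differed by 1.95-fold at the median, from 1.13-fold for Atg5 to 8.46-fold for Optn, and 17 of the 36 reached 2-fold. The lowest value lay in the library labelled knockdown for 15 genes and in shControl for 14, and the highest lay in dynamic suspension for 12, in conventional 3D culture for 12 and in the library labelled overexpression for 8. These places compare 2 kinds of column. Among the 3 columns of estimated counts alone, shControl was lowest for 25 genes, dynamic suspension for 7 and conventional 3D culture for 4. The highest value lay in conventional 3D culture for 18, in dynamic suspension for 14 and in shControl for 4. Neither these counts nor that of 17 genes reaching 2-fold were made over all genes. On a length-scaled measure (counts divided by exon length and brought to the same sum in every library, so that genes can be compared within a library), Ctsd led the set in 4 libraries, from 2770.3 in shControl to 3464 in conventional 3D culture. In the library labelled knockdown Sqstm1 (1124) stood above Ctsd (1050.4) and Psap (981). Ctsh, Mcoln1 and Tfeb were among the 4 lowest in all 5 libraries, at 5.16 to 25.4.

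**Figure D1:**
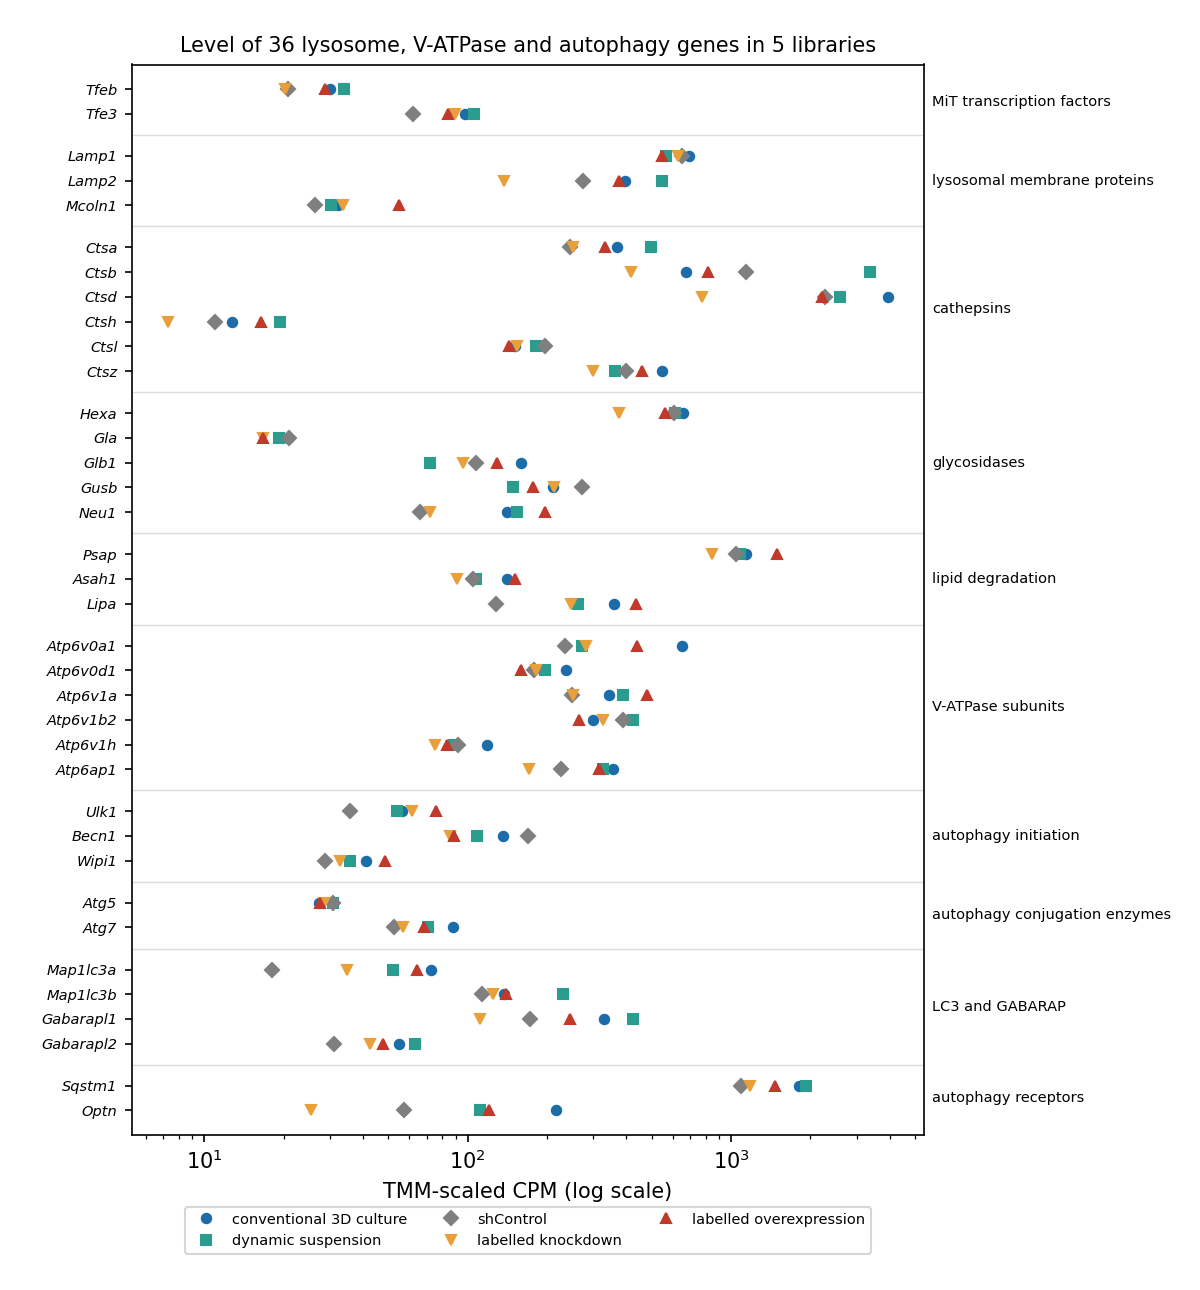
TMM-scaled CPM (log axis) of the 36 genes, 1 point per library, ordered by role from transcription factors to autophagy receptors. Points of Atg5 nearly coincide (27.2 to 30.8 CPM), whereas Ctsb spreads from 416 to 3375 CPM and Optn from 25.5 to 216 CPM.

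Of the 36 genes, 12 share sequence with another gene, meaning that at least 5% of their exon bases lie in exons of another gene or at least 5% of their 50-base words occur in another gene's transcripts. They are Lamp1, Ctsa, Ctsb, Ctsd, Ctsl, Hexa, Glb1, Becn1, Map1lc3b, Gabarapl1, Gabarapl2 and Sqstm1, and they are marked "shared" in the text where a result turns on them, since counting can divide or drop such reads. The other 24 are of own sequence.

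Promoter windows from RefSeq (GRCm38.p6, 250 bases before to 50 after the start, 300 bases) were found for 29 of the 36 genes; Asah1, Atp6v1b2, Atp6v1h, Becn1, Ctsb, Ctsh and Map1lc3a had no entry. They were searched for the CLEAR core TCACGTGA and for the E-box CACGTG that it contains. Both read the same on either strand. TCACGTGA occurred in 6 of the 29 genes (20.7%), against 1.12% of 27025 genes with an entry, and CACGTG in 11 (37.9%), against 8.09%. As CLEAR is known from genes of this kind, these shares are a property of the list and no result of the libraries. The full CLEAR palindrome, the core with G before and C after it, occurred in 0 of the 29, against 0.37% of all genes. The 6 genes were Ctsd, Ctsa, Mcoln1, Atp6v1a, Atp6v0d1 and Gla. The windows of 4 of them, and that of Neu1, a gene of this set beyond 2-fold in 4 of 6 comparisons with no CACGTG in its window, are given below from 5′ to 3′ on the gene's strand, with CACGTG and TCACGTGA in capitals.
Ctsd (chr7:142387778-142388077, minus strand): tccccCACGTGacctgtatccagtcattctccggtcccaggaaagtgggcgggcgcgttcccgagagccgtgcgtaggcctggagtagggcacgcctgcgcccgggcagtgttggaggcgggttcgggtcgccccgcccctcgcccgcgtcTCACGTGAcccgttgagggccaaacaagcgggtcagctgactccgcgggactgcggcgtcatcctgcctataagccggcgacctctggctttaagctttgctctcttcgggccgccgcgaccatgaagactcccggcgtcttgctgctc
Ctsa (chr2:164833523-164833822, plus strand): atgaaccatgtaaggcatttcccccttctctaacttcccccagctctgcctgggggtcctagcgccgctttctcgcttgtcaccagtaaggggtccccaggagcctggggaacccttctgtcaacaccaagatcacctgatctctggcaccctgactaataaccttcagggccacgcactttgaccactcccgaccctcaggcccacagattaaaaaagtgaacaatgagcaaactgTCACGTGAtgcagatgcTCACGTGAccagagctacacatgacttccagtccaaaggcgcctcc
Mcoln1 (chr8:3500269-3500568, plus strand): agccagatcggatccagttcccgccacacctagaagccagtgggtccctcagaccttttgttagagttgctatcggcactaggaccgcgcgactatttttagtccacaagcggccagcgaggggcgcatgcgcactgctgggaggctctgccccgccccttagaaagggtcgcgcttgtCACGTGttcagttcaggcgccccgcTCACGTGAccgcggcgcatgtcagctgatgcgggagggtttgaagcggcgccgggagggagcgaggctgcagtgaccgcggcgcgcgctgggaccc
Atp6v1a (chr16:44139210-44139509, minus strand): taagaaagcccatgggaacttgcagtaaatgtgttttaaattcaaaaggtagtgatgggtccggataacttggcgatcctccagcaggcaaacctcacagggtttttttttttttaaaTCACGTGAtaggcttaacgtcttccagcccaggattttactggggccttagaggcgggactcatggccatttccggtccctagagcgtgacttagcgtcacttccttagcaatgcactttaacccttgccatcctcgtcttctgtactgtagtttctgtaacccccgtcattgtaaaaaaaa
Neu1 (chr17:34931003-34931302, plus strand): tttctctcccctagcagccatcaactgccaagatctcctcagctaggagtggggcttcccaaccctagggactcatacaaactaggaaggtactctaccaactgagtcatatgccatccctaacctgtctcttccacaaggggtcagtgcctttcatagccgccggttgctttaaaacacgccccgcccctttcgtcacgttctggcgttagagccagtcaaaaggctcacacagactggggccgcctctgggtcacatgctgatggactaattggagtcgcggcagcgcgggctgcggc

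The centre of TCACGTGA lay 95 bases before the start in Ctsd, 42 before it in Mcoln1 and 128 before it in Atp6v1a. In Ctsa 1 copy lay 9 bases before and another 8 bases after the start of the window shown, which is 1 of 2 windows listed for that gene. The other (chr2:164832622-164832921), which spans the first annotated base of Ctsa at 164832873, held 0 copies of CACGTG. The windows shown for Ctsa and Atp6v1a lie wholly inside the annotated genes, which for Atp6v1a reaches to 44139705. A match is a description of the sequence and not a site of binding. The 6 genes did not share 1 pattern over the libraries: Gla differed by at most 0.34 on the log2 scale in the 6 comparisons made here, Ctsd by up to 1.55 and Mcoln1 by up to 1.06. Lipa, Optn and Neu1, each called in 3 or more comparisons, held no CACGTG in their windows, which says only that these letters are not there.

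Tfeb and Tfe3, the MiT transcription factors of the lysosome, were lower in shControl than in either culture without a construct label. Tfeb was 20.7 CPM in shControl, 34.0 in dynamic suspension, 30.0 in conventional 3D culture, 20.3 in the library labelled knockdown and 28.7 in that labelled overexpression. Tfe3 was 61.9, 106, 98, 89.6 and 84.1 CPM in the same order. For Tfe3, shControl was the lowest of the 5 libraries, and for Tfeb it lay beside the library labelled knockdown, whose 95% Poisson counting interval (18.1 to 22.7) overlapped that of shControl (19.6 to 21.9). Over shControl, the log2 ratio of Tfeb was 0.53, 95% counting interval 0.42 to 0.64, in conventional 3D culture and 0.71, interval 0.61 to 0.81, in dynamic suspension, both under 2-fold. Mitf, a further member of this family, was 344 and 350.4 CPM in these cultures, 314 in shControl, 158 in the library labelled overexpression and 139 in that labelled knockdown, and so did not follow the order of Tfeb or Tfe3.

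Among lysosomal membrane proteins, Lamp1 differed by 1.27-fold between its highest and lowest library and Lamp2 by 3.96-fold. Lamp1 (shared), an abundant membrane glycoprotein, was 649, 568, 693, 628 and 547 CPM in shControl, dynamic suspension, conventional 3D culture and the libraries labelled knockdown and overexpression. Lamp2 (GRCm38 chromosome X, 38401357 to 38456454, minus strand), whose product also serves chaperone-mediated autophagy, was 275 CPM in shControl, 545 in dynamic suspension, 396 in conventional 3D culture, 137 in the library labelled knockdown and 374 in that labelled overexpression. The library labelled knockdown stood lowest and dynamic suspension highest. The log2 ratio of the library labelled overexpression over the library labelled knockdown was 1.44, 95% counting interval 1.37 to 1.51, and that of dynamic suspension over shControl was 0.99, interval 0.96 to 1.01, just short of 2-fold. Mcoln1, a lysosomal calcium channel, was 26.3, 30.3, 32.1, 33.7 and 55.0 CPM in the order above, with the library labelled overexpression apart from the other 4.

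The cathepsins are the main lysosomal proteases, and the 2 with the most reads, Ctsb and Ctsd, peaked in different libraries. Ctsb (shared, GRCm38 chromosome 14, 63122462 to 63145923, plus strand), a cysteine protease, was 1139 CPM in shControl, 3375 in dynamic suspension, 673 in conventional 3D culture, 416 in the library labelled knockdown and 819.6 in that labelled overexpression. Dynamic suspension stood far above the other 4 libraries, and its log2 ratio was 2.33, 95% counting interval 2.31 to 2.34, over conventional 3D culture and 1.57, interval 1.55 to 1.58, over shControl. Exons of other genes cover 12.8% of the exon bases of Ctsb. Fdft1, the gene with the largest overlap, was 105 CPM in dynamic suspension, 122 in conventional 3D culture and 40.4 in shControl. Fdft1 was thus higher together with Ctsb in dynamic suspension over shControl but not over conventional 3D culture. Its part in the values of Ctsb was not tested.

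Ctsd (shared, GRCm38 chromosome 7, 142375911 to 142388038, minus strand), the aspartic protease cathepsin D, was 2265 CPM in shControl, 2600.2 in dynamic suspension, 3939.7 in conventional 3D culture, 775 in the library labelled knockdown and 2215 in that labelled overexpression. Conventional 3D culture was highest, and the library labelled knockdown was far below the rest. The log2 ratio of the library labelled overexpression over the library labelled knockdown was 1.51, 95% counting interval 1.48 to 1.54. Exons of other genes cover 34.4% of the exon bases of Ctsd. Gm49369, the gene with the largest overlap, was at 0 to 0.487 CPM in all 5 libraries. Ctsd and Ctsb ordered the culture methods oppositely, at log2 ratios of -0.60 (under 2-fold) and 2.33 for dynamic suspension over conventional 3D culture.

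Ctsh, an aminopeptidase, was low everywhere, at 11, 19.4, 12.7, 7.28 and 16.4 CPM in the order above, and its log2 ratio of the library labelled overexpression over the library labelled knockdown was 1.17, 95% counting interval 0.85 to 1.5. Ctsa (shared), a carboxypeptidase that also protects neuraminidase and beta-galactosidase, was 244, 497, 368, 252 and 333 CPM. Only dynamic suspension over shControl passed 2-fold for Ctsa among the 6 comparisons (log2 ratio 1.02, 95% counting interval 1.00 to 1.05). Ctsl (shared, 144 to 196 CPM) and Ctsz (298 to 546 CPM) did not reach 2-fold in any comparison. Summed, the 6 cathepsins reached 7035 CPM in dynamic suspension, 5691 in conventional 3D culture, 4253 in shControl, 3988 in the library labelled overexpression and 1902 in that labelled knockdown.

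**Figure D2:**
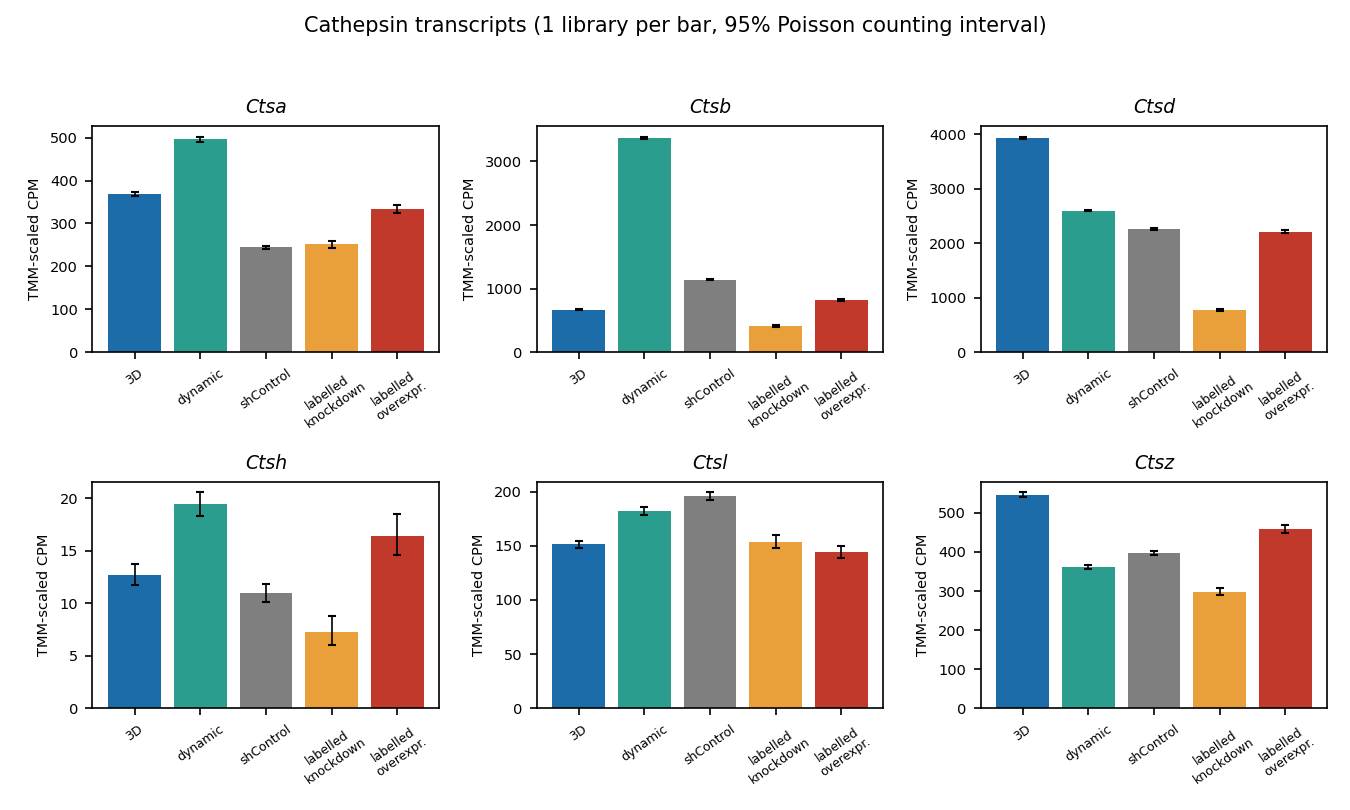
TMM-scaled CPM of the 6 cathepsin genes, 1 bar per library (3D is conventional 3D culture, dynamic is dynamic suspension), with the 95% Poisson counting interval as error bar; each panel has its own scale from 0. Ctsb peaks in dynamic suspension at 3375 CPM, whereas Ctsd peaks in conventional 3D culture at 3939.7 CPM and is lowest in the library labelled knockdown at 775 CPM.

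Of the glycosidases, which remove sugars from glycoproteins and glycolipids, Neu1 varied most. Neu1 (GRCm38 chromosome 17, 34931253 to 34935953, plus strand), the lysosomal sialidase, was 65.7 CPM in shControl, 155 in dynamic suspension, 142 in conventional 3D culture, 72.0 in the library labelled knockdown and 196 in that labelled overexpression. ShControl and the library labelled knockdown were low and the other 3 libraries high, without overlap of their counting intervals. The log2 ratio of the library labelled overexpression over the library labelled knockdown was 1.44, 95% counting interval 1.35 to 1.54, and those over shControl were 1.23 in dynamic suspension and 1.11 in conventional 3D culture. Glb1 (shared), lysosomal beta-galactosidase, was 108, 71.9, 159.9, 95.8 and 129 CPM, and its lowest library was dynamic suspension (log2 ratio over conventional 3D culture -1.15, 95% counting interval -1.21 to -1.10). Gusb, beta-glucuronidase, was highest in shControl (272 CPM, against 148 to 212 elsewhere). Hexa (shared), a subunit of beta-hexosaminidase, was 376 CPM in the library labelled knockdown and 560.1 to 659 elsewhere, and Gla, alpha-galactosidase A, was 16.7 to 21.1 CPM throughout.

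Among genes of lipid degradation, Lipa stood apart in shControl. Lipa (GRCm38 chromosome 19, 34492318 to 34527474, minus strand), the acid lipase that frees cholesterol and fatty acids from lipoproteins, was 128 CPM in shControl, 262 in dynamic suspension, 360.3 in conventional 3D culture, 247 in the library labelled knockdown and 435 in that labelled overexpression. ShControl was the lowest of the 5, and the log2 ratios over it were 1.03 in dynamic suspension, 1.49 in conventional 3D culture, 0.95 (under 2-fold) in the library labelled knockdown and 1.76 in that labelled overexpression. Psap, the precursor of the saposins that present lipids to hydrolases, was 1040.0, 1076, 1134, 845 and 1493 CPM in the order above, and Asah1, acid ceramidase, 104, 108, 141, 91.0 and 152 CPM. For both, the library labelled knockdown was lowest and the library labelled overexpression highest, at log2 ratios between these 2 of 0.82 and 0.74.

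Of the V-ATPase subunits, 1 of 6 passed 2-fold in any comparison. Atp6v0a1 (GRCm38 chromosome 11, 101009452 to 101063719, plus strand), an isoform of the membrane-sector a subunit, was 234 CPM in shControl, 272 in dynamic suspension, 652 in conventional 3D culture, 281 in the library labelled knockdown and 440.5 in that labelled overexpression. Conventional 3D culture was highest, with a log2 ratio of 1.48, 95% counting interval 1.45 to 1.51, over shControl, and dynamic suspension was lower than it (-1.26, interval -1.29 to -1.23). Tcirg1, another isoform of the a subunit and not among the 36, was 150.3, 259, 87.0, 165 and 78.6 CPM in the same order, lowest in the 2 libraries where Atp6v0a1 was highest, and its log2 ratio of dynamic suspension over conventional 3D culture was 1.57, interval 1.52 to 1.62. On the length-scaled measure, the level of Atp6v0a1 was 206 and that of Tcirg1 39.1 in conventional 3D culture, whereas in dynamic suspension they were 112 and 152. Tcirg1 was also lower in the library labelled overexpression than in the library labelled knockdown (log2 ratio -1.07, interval -1.17 to -0.98), where Atp6v0a1 had a ratio of 0.65, under 2-fold. Atp6v0a2, a further a-subunit isoform looked at after these values were seen, stayed between 119.7 and 149 CPM.

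The other V-ATPase genes stayed within 2-fold in all 6 comparisons. Atp6v1a, the catalytic subunit of the cytosolic sector, was 249, 389, 342, 251 and 478 CPM in the order above, with a log2 ratio of 0.93 for the library labelled overexpression over the library labelled knockdown. Its partner Atp6v1b2 was 389.8, 426, 298, 327 and 264 CPM, with a ratio of -0.31 in the same comparison. The accessory subunit Atp6ap1 was 227, 326, 356, 171 and 315 CPM. Atp6v0d1 (159 to 236 CPM) and Atp6v1h (75.1 to 118 CPM) varied least of these.

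The 3 genes that start autophagy differed by 1.69-fold to 2.13-fold between highest and lowest library. Ulk1, the initiating kinase, was 35.6, 53.9, 56.2, 61.6 and 75.9 CPM, with shControl lowest, and the log2 ratio of the library labelled overexpression over shControl was 1.09, 95% counting interval 0.99 to 1.19. Wipi1, which reads phosphoinositide on the forming membrane, was 28.6, 35.9, 41.1, 32.9 and 48.5 CPM and had the same lowest and highest libraries. Becn1 (shared), a subunit of the lipid kinase complex, had shControl highest, at 169, 109, 136, 85.3 and 88.5 CPM. Of the conjugation enzymes, Atg5 was 27.2 to 30.8 CPM and Atg7, the activating enzyme, 52.4 to 87.7 CPM, and neither passed 2-fold in any of the 6 comparisons.

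LC3 and GABARAP genes, whose products are attached to the autophagosome membrane, passed 2-fold over shControl for all 4 members in dynamic suspension and for 1 of 4, Map1lc3a, in conventional 3D culture. Over all genes tested, 13.8% and 14.0% were higher in these comparisons. Of the 4, only Map1lc3a is of own sequence. Map1lc3a (GRCm38 chromosome 2, 155276297 to 155278073, plus strand), encoding LC3A, was 18.1 CPM in shControl, 52.2 in dynamic suspension, 72.6 in conventional 3D culture, 34.8 in the library labelled knockdown and 64.0 in that labelled overexpression. ShControl was lowest and conventional 3D culture highest, at a log2 ratio of 2.0, 95% counting interval 1.91 to 2.10. Gabarapl1 (shared, GRCm38 chromosome 6, 129533160 to 129542346, plus strand) was 172 CPM in shControl, 425 in dynamic suspension, 329 in conventional 3D culture, 112 in the library labelled knockdown and 245 in that labelled overexpression. It was highest in dynamic suspension (log2 ratio over shControl 1.30, interval 1.27 to 1.33) and lowest in the library labelled knockdown, below the library labelled overexpression by 2-fold or more (1.13, interval 1.05 to 1.22). Map1lc3b (shared), encoding LC3B, was 113, 229.8, 137, 125 and 139.8 CPM, and Gabarapl2 (shared) 31.1, 63.2, 55.0, 42.7 and 47.7 CPM. For these 2, dynamic suspension was the highest library, at log2 ratios over shControl of 1.02 and 1.02, close to the 2-fold line. With total counts in place of TMM neither passed it. In conventional 3D culture over shControl, the log2 ratios of Map1lc3b, Gabarapl1 and Gabarapl2 were 0.28, 0.93 and 0.82, all under 2-fold. Map1lc3a and Map1lc3b differed between the culture methods in opposite directions, at -0.47 and 0.74 for dynamic suspension over conventional 3D culture, each under 2-fold.

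The autophagy receptors Sqstm1 and Optn bind ubiquitin-marked cargo. Optn (GRCm38 chromosome 2, 5020642 to 5064051, minus strand), encoding optineurin, had the widest spread of the 36 genes and was 57.3 CPM in shControl, 111 in dynamic suspension, 216 in conventional 3D culture, 25.5 in the library labelled knockdown and 121 in that labelled overexpression. The library labelled knockdown was lowest, shControl next, and conventional 3D culture highest. The log2 ratio of the library labelled overexpression over the library labelled knockdown was 2.24, 95% counting interval 2.08 to 2.40, and that of conventional 3D culture over shControl 1.91, interval 1.86 to 1.97. Dynamic suspension was below conventional 3D culture at -0.95, interval -1.0 to -0.91, just under 2-fold. Sqstm1 (shared), encoding p62, was 1093, 1919, 1804, 1184 and 1467 CPM in the order above, with shControl lowest and dynamic suspension highest but no comparison past 2-fold.

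Dynamic suspension and conventional 3D culture differed in single genes of this set rather than across it. Of the 36 genes, 1 was higher beyond 2-fold in dynamic suspension (Ctsb) and 2 were lower (Glb1 and Atp6v0a1), against 6.44% and 7.64% of 12875 genes tested. The median log2 ratio of the 36 was -0.10, beside -0.02 over all genes tested, and 15 were above 0. Of 157 other genes of the pathway, in lists of hydrolases, membrane proteins, sorting, V-ATPase, autophagy, receptors and nutrient sensing, 146 were measured, with 4 higher and 3 lower. Among them were the hydrolases Ctso (21.8 against 10.6 CPM) and Smpd1, acid sphingomyelinase (143 against 313 CPM), and Prkaa1, a catalytic subunit of the energy sensor AMPK (118 against 245 CPM). Scaling by total counts moved ratios up by 0.19, to medians of 0.09 for the 36, with 21 above 0, and 0.17 for all genes tested; higher genes were then 61.4% of all called in place of 45.7%.

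Both cultures without a construct label stood above shControl across much of the set. In conventional 3D culture 5 of the 36 genes were higher beyond 2-fold (Neu1, Lipa, Atp6v0a1, Map1lc3a and Optn) and 0 lower, against 14.0% higher and 14.9% lower of 12929 genes tested. All 5 are of own sequence. The median log2 ratio was 0.49, beside -0.01 over all genes, and 29 of 36 were above 0, beside 49.6% of all genes. Scaling by total counts moved ratios down by 0.25, to medians of 0.24 for the 36, with 25 above 0, and -0.27 for all genes; higher genes were then 31.8% of all called in place of 48.6%. In dynamic suspension 8 were higher and 0 lower, against 13.8% and 14.8% of 12940 genes. Of the 8, Neu1, Lipa and Map1lc3a are of own sequence, and Ctsa, Ctsb, Map1lc3b, Gabarapl1 and Gabarapl2 are shared. The median of the 36 was 0.38, beside -0.03, and 28 were above 0, beside 48.8% of all genes. Among the 24 genes of own sequence 3 were higher and 0 lower, 20 were above 0, and the median was 0.38. Of the 8 higher genes, 4 (Ctsa, Lipa, Map1lc3b and Gabarapl2) had log2 ratios of 1.02 to 1.03, and with total counts the other 4 (Ctsb, Neu1, Map1lc3a and Gabarapl1) alone remained beyond 2-fold. In conventional 3D culture the share higher beyond 2-fold, 5 of 36, was near that of all genes. The comparisons share shControl and are given side by side.

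**Figure D3:**
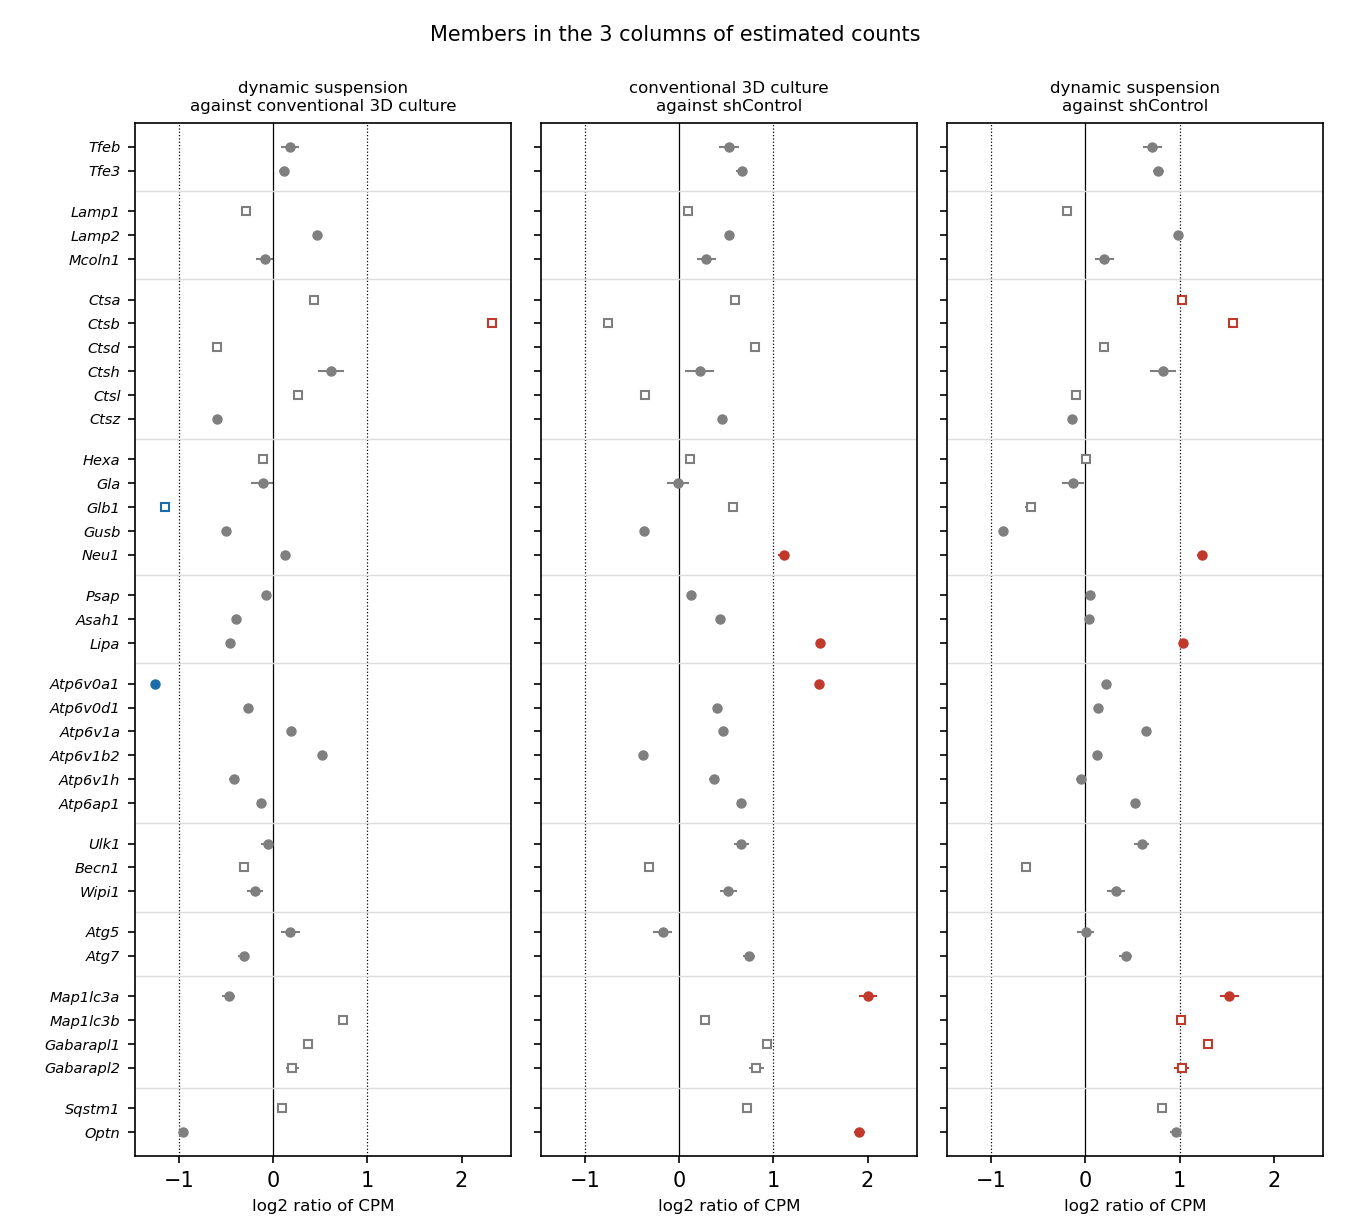
Log2 ratio of TMM-scaled CPM of the 36 genes in the 3 comparisons among conventional 3D culture, dynamic suspension and shControl, with 95% counting intervals; red points are higher and blue points lower beyond 2-fold, open squares mark genes with shared sequence, and dotted lines mark 2-fold. The left panel scatters around 0 with Ctsb at 2.33, and the other panels lie mostly to the right of 0.

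The other genes of the pathway differed by list in these comparisons. In all, 23 of 146 (15.8%) were higher and 3 lower in conventional 3D culture than in shControl, and 23 of 147 (15.6%) were higher and 6 lower in dynamic suspension, near the shares of higher genes over all genes given above. Of 30 other lysosomal hydrolases measured, 13 were higher in conventional 3D culture than in shControl and 0 lower (median log2 ratio 0.86), and 8 were higher in dynamic suspension and 0 lower (median 0.62). Ctsf, a further cathepsin, was 24.3 CPM in conventional 3D culture against 4.90 in shControl, and Ctso was 21.8 CPM in dynamic suspension against 2.68. Of 13 other V-ATPase genes, 0 passed 2-fold in either culture (medians 0.02 and 0.15). Of 36 and 37 core autophagy genes measured, 4 and 5 were higher and 1 and 2 lower. Atg3, the enzyme that attaches lipid to LC3, was among the lower ones, at 31.0 and 35.4 CPM against 78.1 in shControl. Of 9 genes of mannose 6-phosphate sorting, which routes hydrolases to the lysosome, 1 was higher in dynamic suspension (Sort1, 834 against 339 CPM) and 3 lower, and 0 passed 2-fold in conventional 3D culture. Of 22 other membrane proteins, 2 were higher and 1 lower in conventional 3D culture and 1 higher and 1 lower in dynamic suspension, and of 23 genes of nutrient sensing measured, 1 and 2 were higher and 1 and 0 lower. Bnip3 (of shared sequence), a receptor for autophagy of mitochondria and a known HIF-1 target, was 39.1 CPM in shControl, 640.4 in dynamic suspension, 157 in conventional 3D culture, 27.5 in the library labelled knockdown and 183 in that labelled overexpression. It was the highest called gene in the list of 13 other receptors in both cultures, of which 3 were higher in conventional 3D culture, 6 in dynamic suspension and 0 lower. Fibroblast markers moved with conventional 3D culture: 6 of 8 were higher than in shControl and the list summed to 129 CPM there, 38.4 in shControl and 37.6 in dynamic suspension. The immune list summed to 4.5 CPM in shControl, 14.0 in dynamic suspension and 16 in conventional 3D culture, of which Cd68, itself a lysosomal membrane protein, made 3.56, 13.2 and 12.4. Lyz2 was 0.86 CPM in shControl, 0.811 in dynamic suspension and 2.80 in conventional 3D culture. Endothelial markers summed to 4.14, 1.85 and 10.7 CPM in the same order. Vwf made 3.08, 1.04 and 10.7 CPM of these and was called higher in conventional 3D culture than in shControl. The rest of the list did not rise with it. Pecam1 was 0.958, 0.761 and 0 CPM, Kdr was 0.0974, 0.0497 and 0, and Cdh5, Tek and Emcn were at 0 in all 5 libraries. Mitochondrial transcripts made 3.93% of counts in shControl, 6.17% in dynamic suspension and 13.2% in conventional 3D culture. The part of these markers and of the mitochondrial share in the results was not tested.

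The library labelled overexpression stood above the library labelled knockdown across much of the set, in columns of the same kind. Of the 36 genes, 6 were higher beyond 2-fold (Lamp2, Ctsd, Ctsh, Neu1, Gabarapl1 and Optn) and 0 lower, against 17.7% and 14.9% of 12305 genes tested, so the share of higher genes was near that of all genes. The median log2 ratio was 0.53, beside -0.03 over all genes, and 29 were above 0, beside 49.0% of all genes. Among the 24 genes of own sequence 4 were higher, 19 were above 0, and the median was 0.64. By role, with 2 to 6 genes in each, the medians were 0.80 for cathepsins, 0.82 for lipid degradation, 0.43 for glycosidases and 0.70 for lysosomal membrane proteins. They were 0.40 for V-ATPase subunits, 0.20 for the MiT factors and 0.30 for autophagy initiation. For the conjugation enzymes the median was 0.11, for LC3 and GABARAP 0.52, and for the autophagy receptors 1.27. Of the other pathway genes, 26 of 146 (17.8%) were higher and 4 lower, near the 17.7% of all genes that were higher. Of 30 other hydrolases, 11 were higher and 0 lower (median 0.62), with Ctsf at 30.5 against 4.46 CPM. Of 14 other V-ATPase genes, 1 was higher and 2 lower (median 0.33), and of 9 sorting genes 0 were higher and 1 lower (median -0.25). Of 22 membrane proteins, 2 were higher and 0 lower, of 12 receptors 5 and 0, and of 23 nutrient sensing genes 4 and 0. Of 36 core autophagy genes, 3 were higher and 1 lower (median 0.14), among them Rb1cc1, a scaffold of the ULK1 complex, at 30.1 against 12.4 CPM. Bnip3 (of shared sequence) was again the highest called receptor (183 against 27.5 CPM). Prkaa2, the other catalytic subunit of AMPK, was 64.1 against 14.2 CPM.

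Melanocyte markers did not move together in this comparison. Of 7, 2 were higher and 0 lower beyond 2-fold, and 5 were above 0 (median log2 ratio 0.18). Mlana (375 against 559 CPM) and Sox10 (471 against 695 CPM) went the other way. The list summed to 27591 against 14699.5 CPM, of which Dct made 13722 and 4345. Of 10 immune markers, Cd68 was 8.40 against 0.788 CPM, while Ptprc, Itgam, Adgre1, C1qa, C1qb and Csf1r were at 0 to 0.0656 CPM in both. Of 8 fibroblast markers, 4 were measured and 3 of these were lower, and the list summed to 15.8 against 35.6 CPM. Endothelial markers summed to 4.88 against 2.49 CPM, of which Vwf made 4.88 and 2.17, while Pecam1 was at 0 against 0.328. Mitochondrial transcripts made 5.60% against 2.99% of counts. The part of pigment cell state, of these markers and of the mitochondrial share in the result was not tested.

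Against shControl, the libraries labelled knockdown and overexpression had shares of called genes in this set near or under those of all genes. The kind of column differs too. In the library labelled knockdown 0 of 36 were higher and 3 lower (Ctsb, Ctsd and Optn), against 8.05% and 15.7% of 12639 genes tested, and the median log2 ratio was -0.14, beside 0.01. Their log2 ratios were -1.45, -1.55 and -1.16, and Optn is the only one of own sequence. Becn1 (shared, -0.99) and Lamp2 (-1.0) lay at the 2-fold line. In the library labelled overexpression 6 of 36 were higher (Mcoln1, Neu1, Lipa, Ulk1, Map1lc3a and Optn) and 0 lower, against 16.1% and 20.1% of 12881 genes, with a median of 0.44 beside -0.02. All 6 are of own sequence, and their log2 ratios ran from 1.06 to 1.82. Scaling on protein-coding genes of own sequence moved ratios over shControl down by 0.13 and 0.14 and left 3 of the 6 (Neu1, Lipa and Map1lc3a) beyond 2-fold.

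**Figure D4:**
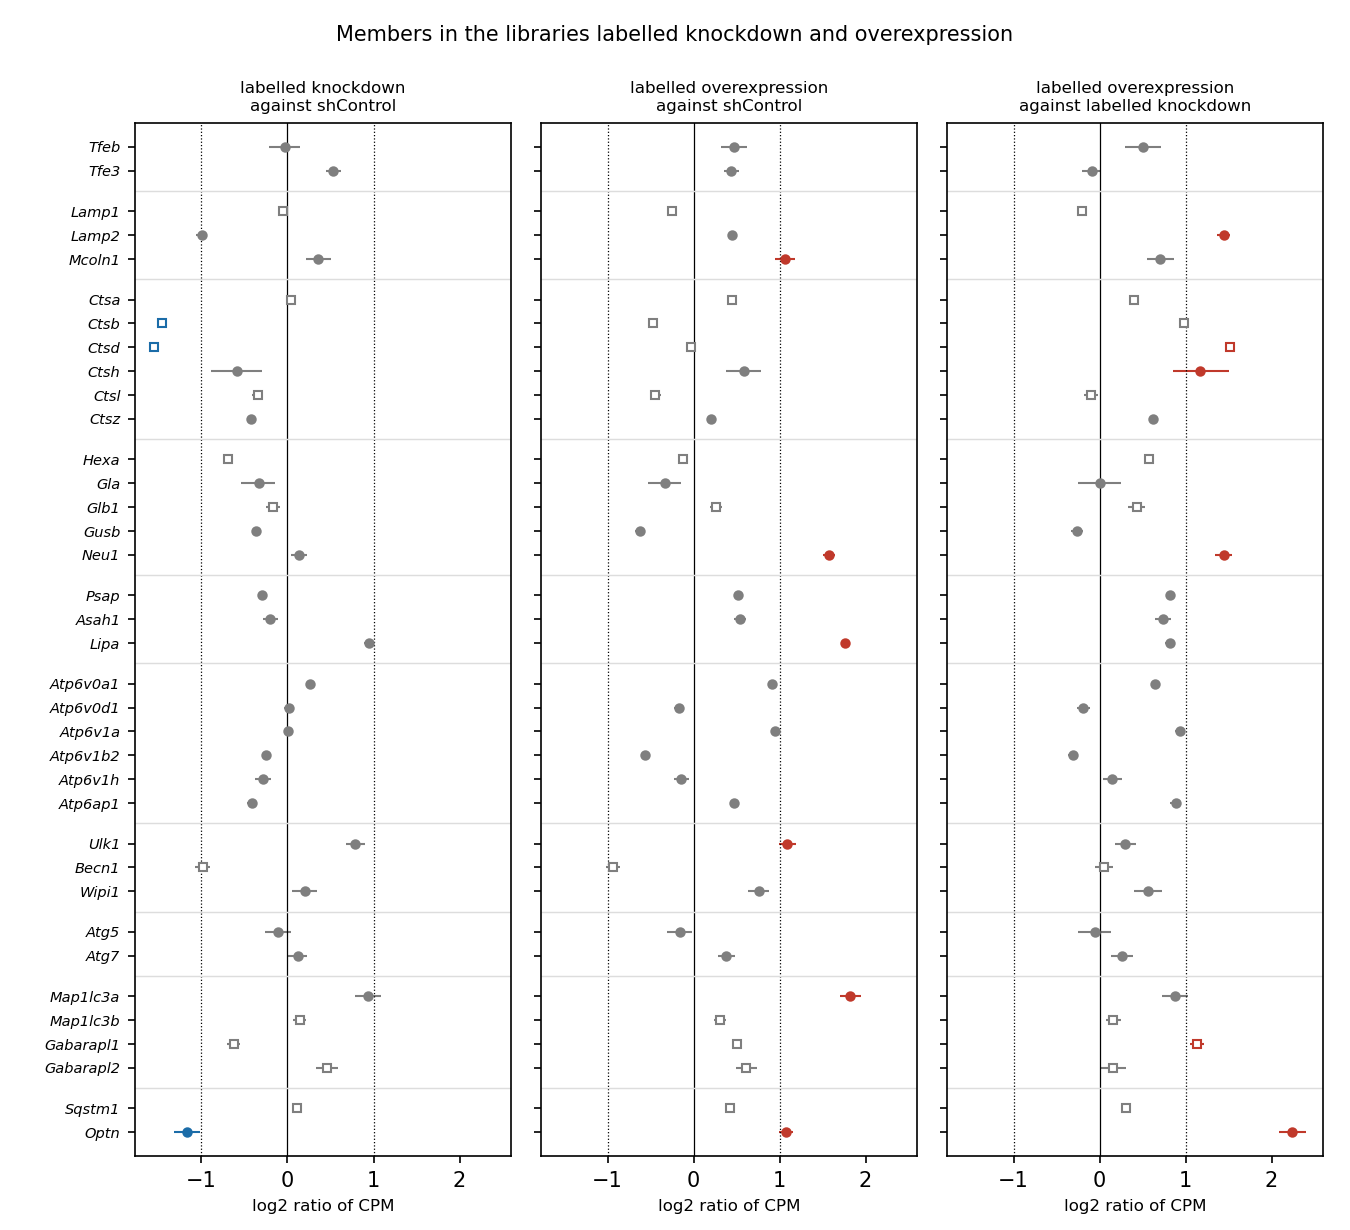
Log2 ratio of TMM-scaled CPM of the 36 genes for the library labelled knockdown over shControl, the library labelled overexpression over shControl, and the library labelled overexpression over the library labelled knockdown, with 95% counting intervals; symbols as in the plot of ratios among the cultures. In the right panel 29 of 36 genes lie above 0, with Optn at 2.24.

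Over the 6 comparisons, which share libraries, 16 of the 36 genes passed 2-fold at least once and 20 did not. The same count was not made over all genes, so it does not tell whether this set differs from other genes. Neu1 and Optn passed in 4 comparisons each, Ctsb, Lipa and Map1lc3a in 3, and Atp6v0a1, Ctsd and Gabarapl1 in 2. Among these 8, Neu1, Lipa, Map1lc3a and Gabarapl1 were higher in each of their called comparisons, whereas Optn, Ctsb, Atp6v0a1 and Ctsd were each higher in some and lower in others.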

How the data were processed

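Per the labels' protocols, TRIzol RNA of integrity over 7.0 was selected for poly(A), made into strand-specific libraries and read as 150 bp pairs. Cutadapt, HISAT2 and StringTie, with the builds GRCm38.p6 and mm10, are named per the submitters' processing notes. Which program counted reads, and over which annotation, is not given in the sources used here. The deposited columns of conventional 3D culture, dynamic suspension and shControl hold estimated counts by their pattern of values, and the deposited columns labelled knockdown and overexpression hold counts. Divided by 4, the first 3 sum to 15316973, 15253565 and 14873310, close to the other 2. All columns were matched by the sample descriptions, with 0 left over, and all 54100 identifiers were found in GENCODE M21.

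TMM factors (edgeR 4.0.16, R 4.3.3) over all 5 libraries were 1.035 (shControl), 0.99 (dynamic suspension), 0.869 (conventional 3D culture), 1.029 (labelled knockdown) and 1.091 (labelled overexpression). Ratios used a prior count of 2. Intervals of ratios are exact conditional binomial (Clopper-Pearson) and those of levels exact Poisson, at 95%; they cover counting error only, since reads carry no molecular identifiers, and are too narrow where an estimated count exceeds the reads behind it. Each of the 6 comparisons is between 2 libraries and has no test. The call rule was tested on simulated data of Poisson counts. These hold no spread between samples and no estimated columns, so that test cannot speak to either. Members and lists were chosen with earlier results of these data known. All 36 members are named, and other pathway genes only as the highest or lowest called gene of a list at 10 CPM or more, apart from Atp6v0a2, chosen after its values were seen; Mitf and the marker genes come from fixed lists. Alternatives were total-count scaling, DESeq2 1.42.0 size factors, TMM on protein-coding genes of own sequence, no minimum or 10 CPM, a prior of 0.5, values of estimated columns divided by 4, and members of own sequence only.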

Additional observations from a re-analysis of the deposited data

How the results depend on the processing

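The counts of genes beyond 2-fold rest most on scaling and on shared sequence. With total counts in place of TMM, dynamic suspension against conventional 3D culture had 1 lower gene in place of 2, conventional 3D culture against shControl had 1 lower gene in place of 0, and dynamic suspension against shControl had 4 higher in place of 8. With TMM on protein-coding genes of own sequence, dynamic suspension against shControl had 5 higher in place of 8, the library labelled knockdown against shControl 5 lower in place of 3, and the library labelled overexpression against shControl 3 higher in place of 6 and 1 lower in place of 0. With members of own sequence only, which leaves 24 of 36 genes, dynamic suspension against conventional 3D culture had 0 higher and 1 lower, dynamic suspension against shControl 3 higher, and the library labelled knockdown against shControl 1 lower. The cause of the changes with scaling was not tested. The other 85 of 96 counts recomputed were within 1.5 times the reported ones, including every count under DESeq2 size factors, no minimum, a minimum of 10 CPM, a prior count of 0.5 and estimated columns divided by 4, and no called ratio changed sign under these alternatives. With all members at 7.28 CPM or more, the minimum, the prior and the division by 4 had little room to change a call. Total counts moved the share of higher among all called genes from 45.7% to 61.4% in dynamic suspension against conventional 3D culture and from 48.6% to 31.8% in conventional 3D culture against shControl. No paired analysis was possible because each group has 1 library, and no library could be left out for the same reason.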

Other observations

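2 genes of the pathway outside the 36 stood far lower in both columns of plain counts than in the 3 columns of estimated counts. Atp6v0c, the proteolipid of the V-ATPase rotor, was 949 CPM in shControl, 990.2 in dynamic suspension, 1314 in conventional 3D culture, 147 in the library labelled knockdown and 232 in that labelled overexpression, and 10.8% of its 50-base words occur in other genes. Ccpg1, a receptor for autophagy of the endoplasmic reticulum, was 47.7 CPM in shControl, 91.6 in dynamic suspension, 68.0 in conventional 3D culture, 0 in the library labelled knockdown and 0.476 in that labelled overexpression, and 55.8% of its exon bases lie in exons of another gene. In the library labelled knockdown the count of Ccpg1 was 0, which allows up to 3 counts, or 0.197 CPM. Between the libraries labelled overexpression and knockdown, Atp6v0c had a log2 ratio of 0.66, interval 0.58 to 0.74.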
